A study of Mus musculus with 6 samples.

Results

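The genes described here encode 6 secreted or membrane-bound cytokines of T cells: Ifng, Il22, Tnf, Lta, Ltb and Il2. They were taken from 21883 protein-coding genes placed on the GRCm38 mouse assembly. H3K4me3, the trimethylated form of lysine 4 of histone H3, marks active promoters and some strong enhancers. It had been mapped by native chromatin immunoprecipitation in cells labelled as CD8+ lymphocytes from E0771 tumours, a mouse mammary tumour line, in C57BL/6 mice. One library came from wild-type animals and 1 from Atg5-/- animals, which had lost this gene of autophagosome formation through Cre. The Cre driver, the deleted part of Atg5, the number of animals per library and the age of the mice are not stated in the labels. All regions overlapping the gene and 50 kb on either side were taken for Ifng, and those overlapping the gene and 5 kb on either side for the other genes. This gave 5 distinct regions of 48546 for the wild type and 15 of 46565 for the knockout. A region was called a promoter region if it came within 1 kb of the gene start, and a distal region if it lay outside that window and outside the gene. There was no replicate of either genotype, so no difference below was tested and no p-value is given.

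Interferon gamma, the product of Ifng, acts on most cells to raise antigen presentation and to arm macrophages. Tumour necrosis factor and the lymphotoxins are related ligands, with Lta encoding a secreted trimer that can join the membrane protein encoded by Ltb, and the 3 genes lie side by side in the major histocompatibility complex. Il2 encodes the growth factor of activated T cells, and Il22 a cytokine that acts on epithelia and is made mainly by innate lymphoid cells and helper T cells. CD8 T cells transcribe Ifng, Tnf and Il2 soon after antigen contact, and the Ifng gene depends on conserved elements spread over a wide stretch on either side of it.

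The 2 libraries differed in the marks of the labelled cell type itself, which touches every value below. Of 12 T cell markers, 12 had a promoter region in the knockout list and 3 in the wild-type list, and their summed covered length within 2.5 kb of the start was 52314 bp against 3973 bp. Over all protein-coding genes 61.1% had a promoter region in the knockout list and 59.5% in the wild-type list. In the wild-type list 6 of the 12 were at 0 bp, Cd8a, Cd3e, Cd2, Thy1, Bcl11b and Trat1. The wild-type library thus went against its label at these defining genes, and whether it holds the cells named on the label was not tested. Of 11 myeloid markers, the wild-type list marked 11 (23221 bp) and the knockout list 10 (23919 bp), and all 6 epithelial tumour markers were marked in both, with 8265 bp and 12081 bp. NK cells also make interferon gamma, and of 5 NK cell markers the knockout list marked 2 and the wild-type list 1, with 3550 and 369 bp in sum. Of these, Klrk1, which CD8 T cells also use, had 3025 bp against 0 bp, and Ncr1, Klra8 and Klri2 were at 0 bp in both. Of 6 markers of ILC3 and Th17 cells, which make interleukin-22, 1 was marked in the knockout list (2380 bp) and 2 in the wild-type list (3415 bp), and Il17a, Il17f and Il23r were at 0 bp in both. For CD4 and regulatory T cells 2 of 4 were marked in each list, with 6916 bp in the knockout against 6781 bp. The knockout sum includes 805 bp at Cd40lg, around a gene boundary chosen by coverage that may not be its start. B cell markers had 4113 bp against 582 bp, with 2 and 1 of 6 marked and 3 longer in the knockout. Markers of fibroblasts and endothelium had 12537 bp against 16421 bp, with 4 of 6 marked in each list, 5 shorter in the knockout and 0 longer. For these bulk libraries, fewer T cells and less H3K4me3 per T cell cannot be told apart. The part of these differences in the results below was not tested. Atg5 itself was marked in both lists, with 2926 bp (wild type) and 2705 bp (knockout), which checks nothing while the deleted part is not known. The lowest number of reads at any called summit was 10 in each list.

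The promoters are shown first because they differ in base composition and in whether the mark was found there. The RefSeq promoter table (GRCm38.p6) matched 6 of 6 genes. The 250 bases before the start are printed 5′ to 3′ on the gene's strand for Ifng (chr10:118440796-118441045, plus strand), Tnf (chr17:35202008-35202257, minus strand), Ltb (chr17:35194257-35194506, plus strand) and Il2 (chr3:37125955-37126204, minus strand). Capitals mark matches to any of 6 motifs searched on both strands, described after the sequences.
Ifng: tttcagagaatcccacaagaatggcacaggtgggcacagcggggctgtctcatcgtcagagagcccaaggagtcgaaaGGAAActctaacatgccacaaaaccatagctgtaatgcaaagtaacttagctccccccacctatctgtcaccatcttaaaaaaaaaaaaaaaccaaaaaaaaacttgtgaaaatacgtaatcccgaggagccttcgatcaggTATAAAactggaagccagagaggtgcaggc
Tnf: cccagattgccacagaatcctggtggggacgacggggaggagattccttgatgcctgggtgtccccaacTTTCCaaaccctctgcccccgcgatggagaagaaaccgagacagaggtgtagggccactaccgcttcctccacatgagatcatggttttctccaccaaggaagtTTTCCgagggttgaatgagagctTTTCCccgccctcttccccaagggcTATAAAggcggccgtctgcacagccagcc
Ltb: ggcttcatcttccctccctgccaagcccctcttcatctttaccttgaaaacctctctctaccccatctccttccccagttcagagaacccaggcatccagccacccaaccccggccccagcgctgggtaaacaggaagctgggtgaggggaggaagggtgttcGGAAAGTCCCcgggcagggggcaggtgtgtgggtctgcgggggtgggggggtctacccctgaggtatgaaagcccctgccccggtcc
Il2: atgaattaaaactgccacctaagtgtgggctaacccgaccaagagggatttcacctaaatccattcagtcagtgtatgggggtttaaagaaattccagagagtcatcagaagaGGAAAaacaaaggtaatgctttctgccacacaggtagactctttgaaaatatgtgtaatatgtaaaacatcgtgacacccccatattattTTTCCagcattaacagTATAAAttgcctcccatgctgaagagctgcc

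Ifng, Tnf and Il2 each hold a TATA box, TATAAA, with its first base at -30, -29 and -31, counted upstream from the start. Across all 17491 promoters of protein-coding genes in the table, 12.4% hold TATAAA within these 250 bases on either strand. Ltb holds none. GGAAA, the core that NFAT and Rel factors share, was found once in Ifng, 3 times in Tnf, once in Ltb and 2 times in Il2, and 54.9% of all promoters hold it. The NF-kappaB motif was found in Ltb alone among these 4 sequences, at -87 and on the minus strand, where it overlaps the GGAAA match, and 19.1% of all promoters hold it. The AP-1 motif TGANTCA, the T-box motif AGGTGNGA and the Runx motif TGTGGT had no match in the 4 sequences, against 6.18%, 4.47% and 12.4% of all promoters. A match describes these letters only. For Il22 and Lta the annotated gene reaches upstream of the start used, so their upstream bases are not printed.

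The promoters without any region nearby, those of Il22 and Il2, had the fewest CpG dinucleotides of the 6. In the 300-base window around the start, Tnf held 11 CpG dinucleotides, Lta 10, Ifng 7, Ltb 7, Il22 4 and Il2 2. All of the Il22 window and most of the Lta window lie inside the annotated gene, so their counts and classes may not describe the promoter. The median over all promoters was 13, so each of the 6 lay below it. Among promoters with 0 to 2 CpG, the class of Il2, 8.20% of wild-type and 8.26% of knockout promoters had a region within 1 kb. In the class of Il22, with 3 to 5, these shares were 25.9% and 26.1%, and in the class of Ifng and Ltb, with 6 to 9, they were 49.2% and 50.3%. In the class of Tnf and Lta, with 10 to 14, 74.7% and 77.6% were marked. A region in the knockout list only, as at Ifng, was found at 4.35% of promoters in its class.

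**Figure D1:**
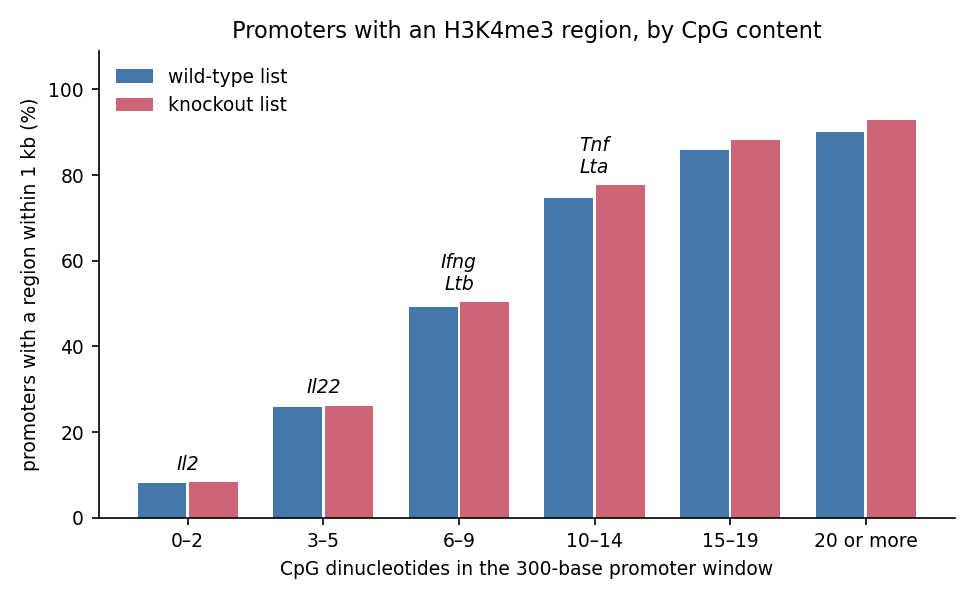
Bars give the percentage of promoters with an H3K4me3 region within 1 kb of the gene start (vertical axis) by the number of CpG dinucleotides in the 300-base window (horizontal axis), for the wild-type (blue) and knockout (red) lists. The shares rise from 8.20% and 8.26% in the class of Il2 to 74.7% and 77.6% in the class of Tnf and Lta, and the names above the bars place the 6 genes.

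Promoter regions were found at 4 of 6 genes in the knockout list and 3 of 6 in the wild-type list. Tnf, Lta and Ltb had one in both lists, Ifng in the knockout list only, and Il22 and Il2 in neither. Over all protein-coding genes 61.1% had a promoter region in the knockout list, 59.5% had one in that of the wild type, 57.9% in both, 3.24% in the knockout list only, 1.66% in the wild-type list only and 37.2% in neither. The covered length within 2.5 kb of the start was longer in the knockout for 4 genes and equal, at 0 bp, for Il22 and Il2, with a median difference of 1010 bp. Some bases of the knockout Lta region lie in the windows of both Tnf and Lta, so they count for both genes and raise this median. Over all genes 30.7% were longer and 34.4% shorter, and the median difference was 0 bp.

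**Figure D2:**
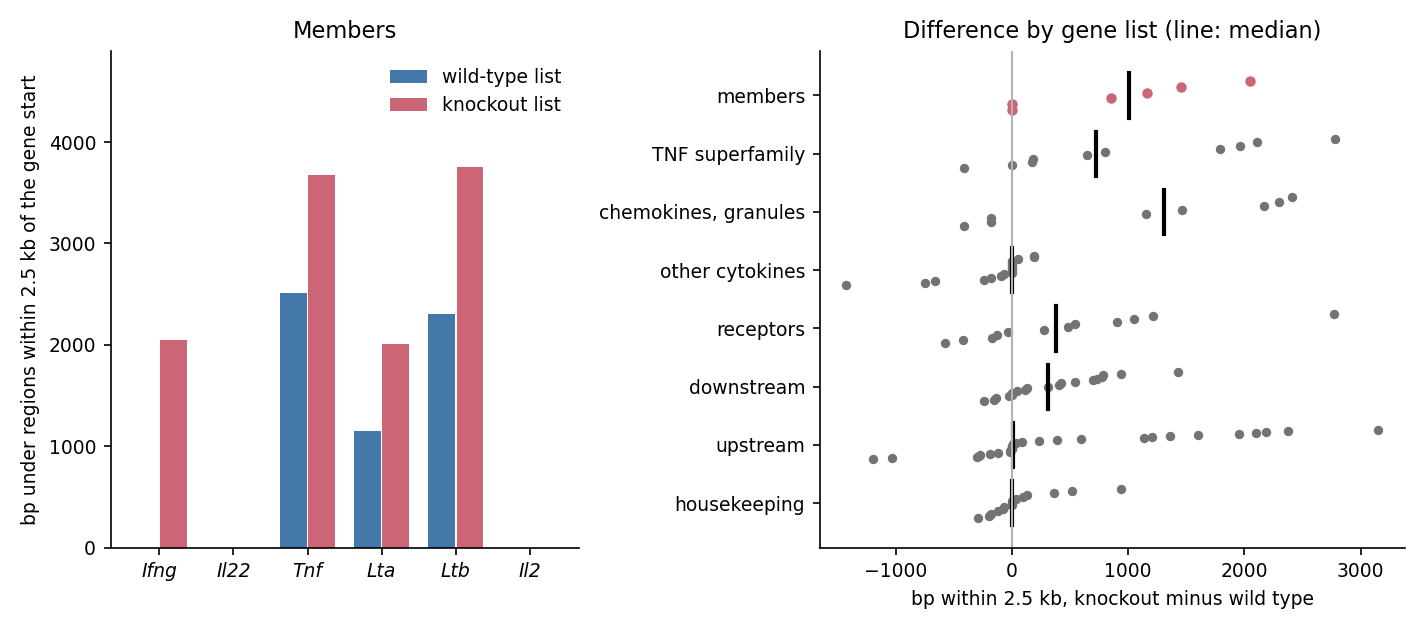
Left, bp under regions within 2.5 kb of the gene start (vertical axis) for each of the 6 genes in the wild-type (blue) and knockout (red) lists, 1 library each. Right, the knockout minus wild-type difference in bp (horizontal axis) for each gene of the 6 (red points) and of 7 gene lists (grey points), with the median as a black line: 1010 bp for the 6 genes and 0 bp for housekeeping genes. The knockout value of Tnf includes some bases of the Lta region.

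Ifng (chromosome 10, 118441046 to 118445894, plus strand) had regions on both flanks in the knockout list. Its window of 104849 bp held 10 regions covering 8554 bp (8.16%) in the knockout list and 1 region covering 1089 bp (1.04%) in the wild-type list. This surplus rested on weak regions: at a −log10 q of at least 10 each list held 1 region, and with the 20000 regions of highest −log10 p kept per list neither held any. A surplus of at least 9 knockout regions within 50 kb of the gene was found at 0.388% of all protein-coding genes, whose windows differ in length with the gene. A surplus of at least 7465 bp there, that of Ifng, was found at 3.81%. Within 2.5 kb of the start, the covered length of Ifng was 2047 bp against 0 bp for the wild type, and 1.05% of genes gained as much. Within 5 kb of the start the lengths were 2134 bp and 0 bp at Ifng, less of a gain than at Tnf, with 6537 against 3663 bp, or Ltb, with 6413 against 2301 bp. The 5 kb stretches of Tnf and Ltb also take in regions of neighbouring genes, so those gains are not theirs alone. T cell markers differed in the same libraries, at 12 against 3 of 12 marked.

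The Ifng promoter region of the knockout list ran from -18 to 972 bp relative to the start, so nearly all of it lay in the transcribed part. Its summit stood 626 bp into the gene and held 18 reads (exact Poisson 95% interval 10.7 to 28.4) over a local background of 2.79 reads. The authors' fold at this summit was 5.01, at percentile 26.6 of the folds in the knockout list. A second region, from 1396 to 2451 bp after the start, was separated from the first by 423 bp and held 14 reads at its summit, with a fold of 3.08 at percentile 1.20. Together they covered 41.8% of the gene. The wild-type list had no region in the gene, and its nearest region began 29.1 kb downstream of the start. With regions of −log10 q of at least 10, the Ifng promoter region was no longer in the knockout list, since its −log10 q was 7.95.

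Away from the gene, 8 distal regions of the knockout list were spread over both flanks, 3 upstream and 5 downstream of it. Upstream, the summits stood at -33.9, -22.5 and -5.5 kb from the start, with 13, 19 and 19 reads. Downstream, the summits stood at 20.9, 28.5, 36.3, 40.5 and 45.6 kb, with 14, 29, 14, 14 and 18 reads. The region at 28.5 kb was the widest of the 10, at 2254 bp (chr10:118468999-118471252), and had the highest fold, 8.29, at percentile 51.5 of its list. The other 9 regions of the window lay under the median fold of the knockout list, 8.02. The narrowest was 318 bp, at 45.6 kb. The gene table places no other gene in this window.

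The single wild-type region at Ifng (chr10:118470156-118471244) lay wholly inside the widest knockout region. Its summit stood at 29.6 kb, 1113 bp further downstream than the knockout summit, with 24 reads (15.4 to 35.7) against 29 (19.4 to 41.6). The knockout region began 1157 bp before the wild-type region and ended 8 bp after it. By an overlap of at least 1 bp this distal site was called in both libraries, whereas the promoter and the other distal sites were called in the knockout alone. The wild-type region overlapped 48.3% of the knockout region, and the knockout summit lay outside it. The wild-type fold of 5.75 stood at percentile 36.9 of the wild-type list.

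Conserved noncoding elements of Ifng studied in T cells are named for their distance in kb from its start, and 5 of them, at -34, -22, -6, 18 and 29 kb, were compared with the summits. These positions are read from the element names as general knowledge, not from a file, and other named elements were not compared, so the counts below depend on that choice. In the knockout list 4 of the 5 had a summit within 1 kb, at distances of 56, 467, 464 and 536 bp for -34, -22, -6 and 29 kb. No knockout summit stood within 1 kb of the 18 kb position, and the nearest, at 20.9 kb, lay 2899 bp from it. Each element was taken as 1 point, so an element that spans a longer stretch may be missed by this reading. In the wild-type list 1 of the 5, that at 29 kb, had a summit within 1 kb, at 577 bp. The stretches within 1 kb of the 5 positions make up 9.54% of the window, and 4 of the 10 knockout summits fell in them. The elements were chosen with earlier results of these data known, so these values are no measure of enrichment. The names give positions to the nearest kb only, so this is a match of distances and not of bases.

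Beyond the window, the lists again differed on the downstream side, as examined after the values were seen. The knockout list had a region of 1985 bp over the start of Ifngas1, a long noncoding RNA gene read towards Ifng from 115.5 kb downstream (chromosome 10, 118502035 to 118556525), with 21 reads at its summit. The wild-type list had no region within 1 kb of that start. Another knockout region, of 748 bp, lay inside Ifngas1 at 109.5 kb, with 15 reads at its summit, and met no wild-type region. Both lists had a region in Ifngas1 at 76.4 kb in the knockout and 76.8 kb in the wild type from the Ifng start, with 13 and 17 reads. On the other side the wild-type list had a region at -70.6 kb, with 37 reads, that met no knockout region.

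**Figure D3:**
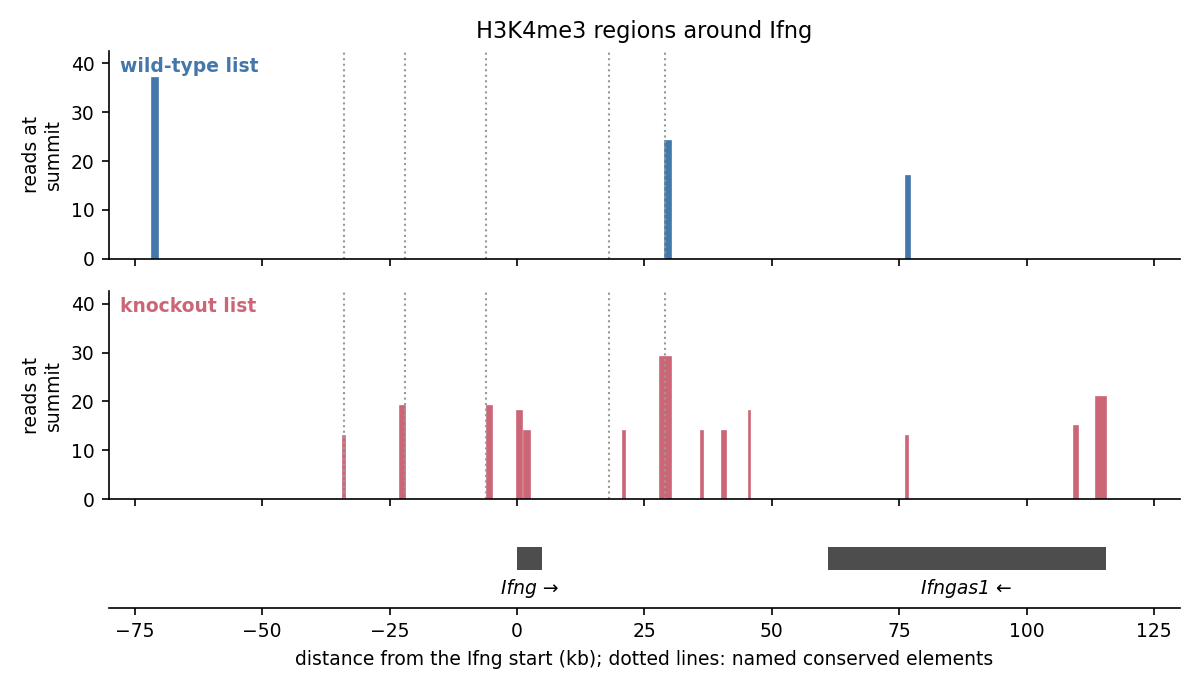
Each box is 1 H3K4me3 region drawn to scale along the distance from the Ifng start in kb (horizontal axis), with the reads at its summit as height (vertical axis), for the wild-type (blue) and knockout (red) lists. Within 50 kb of the gene the knockout list shows 10 boxes and the wild-type list 1, near 29 kb, and the dotted lines mark the 5 named elements.

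The genes with covered lengths nearest to those of Ifng within 2.5 kb of the start, over the 2 libraries, were Shc3, Nebl, Tmem273, Slc28a2b and Fasl. Each had 0 bp in the wild type, and their knockout lengths were 2052, 2070, 2080, 1999 and 2112 bp, against 2047 bp for Ifng. The summed difference from Ifng ran from 5 bp for Shc3 to 65 bp for Fasl. The strand of Shc3 is not in the promoter table, so its start is the gene boundary with more coverage.

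Ltb, Tnf and Lta span 11.1 kb on chromosome 17, with Ltb on the plus strand facing Tnf and Lta on the minus strand. The 5 kb windows of the 3 genes overlap, so they share regions and are described over 1 joint stretch of 21072 bp (chr17:35189507-35210578). Knockout regions covered 12872 bp of it (61.1%) in 5 regions, and wild-type regions 6948 bp (33.0%) in 4. Every base under a wild-type region of this stretch was also under a knockout region. All 4 wild-type regions were thus found again in the knockout list, each of them wider there. The T cell markers, with 52314 against 3973 bp, were longer in the same library.

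Tnf (35199367 to 35202007) had a promoter region that was 2511 bp wide in the wild-type list and 3585 bp wide in the knockout list. The knockout region reached 402 bp further upstream of the gene and 672 bp further in the 3′ direction, and so ran from -735 to 2849 bp relative to the start. It covered 100% of the gene, against 82.5% in the wild type. Both summits lay just after the start, at 130 bp (wild type) and 81 bp (knockout), with 33 reads (22.7 to 46.3) and 87 reads (69.7 to 107.3). Within its own list the wild-type region stood at percentile 44.9 by fold and 84.1 by width, and the knockout region at 79.8 and 92.7. Within 2.5 kb of the start the covered length of Tnf was 3674 bp against 2511 bp, and 3.18% of genes gained at least as much. The knockout Lta region reaches into this window and the wild-type one does not, so part of this gain belongs to the Lta region.

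Lta (35203165 to 35205578) had the summit at the same base in both lists, 303 bp after its start. The region there was 1152 bp wide in the wild type, with 37 reads at the summit (26.1 to 51.0), and 2009 bp wide in the knockout, with 90 reads (72.4 to 110.6). The knockout region covered 62.5% of the gene and the wild-type region 35.9%, in both cases with the 3′ part left uncovered. Within 2.5 kb of the start the lengths were 1152 and 2009 bp, a gain that 5.17% of genes reached. The summit folds were 9.88 at percentile 57.9 of the wild-type list and 25.2 at percentile 80.5 of the knockout list.

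Ltb (35194507 to 35196305) differed in where its region began. The wild-type region started 97 bp inside the gene and ran to 2397 bp after the start, with its summit at 1562 bp, near the 3′ end. The knockout region ran from -1255 to 3442 bp relative to the start, with its summit at 1128 bp. At 4698 bp it was the widest region of the 6 genes and stood at percentile 96.6 by width in its list, and it was 2.04 times as wide as the wild-type region. The summits held 27 reads (17.8 to 39.3) in the wild type and 86 reads (68.8 to 106.2) in the knockout. Within 2.5 kb of the start the covered length of Ltb was 3756 bp against 2301 bp, and 2.06% of genes gained at least as much.

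Other regions flanked the 3 genes. Upstream of Lta both lists had a region that holds no annotated gene start, chr17:35209595-35210955 in the wild type and chr17:35209364-35211237 in the knockout, with summits at -5.2 and -4.8 kb from the Lta start. Their summits held 33 reads (22.7 to 46.3) and 43 reads (31.1 to 57.9). Upstream of Ltb the knockout list alone had a region, of 1498 bp (chr17:35189374-35190871) with 35 reads at its summit. This summit lay 1440 bp from a boundary of Lst1, a leukocyte gene on the myeloid marker list, with 4289 bp (knockout) and 1964 bp (wild type) around that boundary. The region itself came within 1 kb of the boundary, which was used as the Lst1 start. By the rule used here it is thus a promoter region of Lst1 and a distal region of Ltb, at -5133 to -3636 bp from the Ltb start. Lst1 had 2 promoter regions in each list. Which of the 2 genes this region acts on was not tested.

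**Figure D4:**
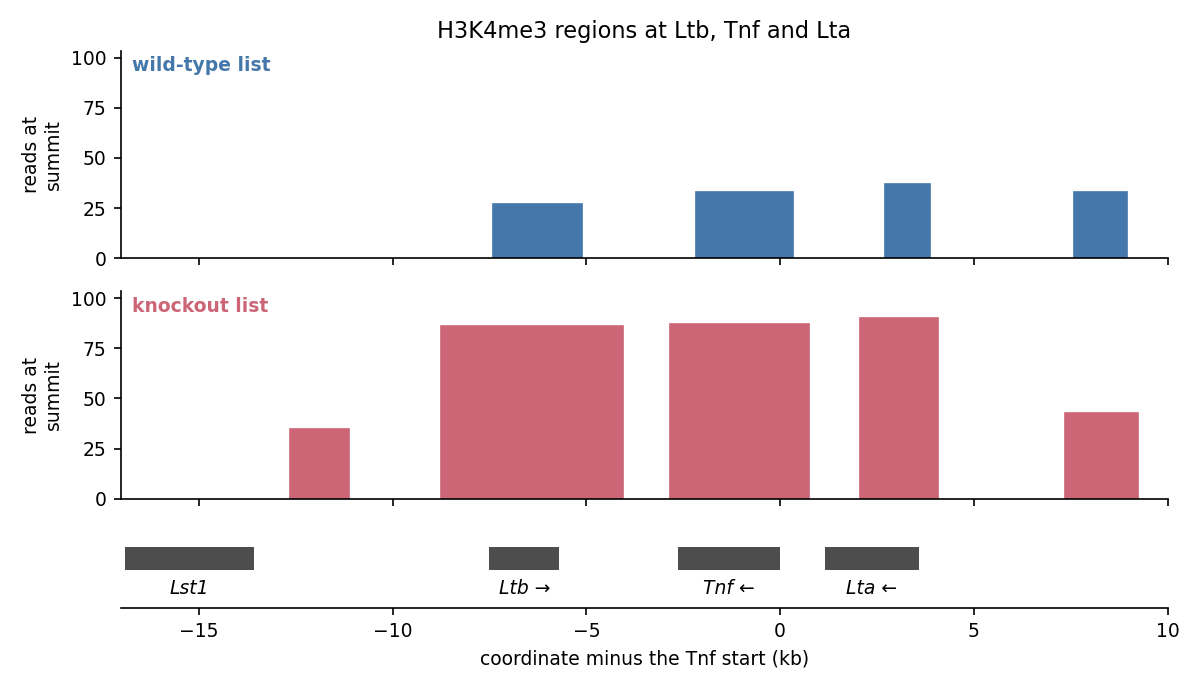
Each box is 1 H3K4me3 region drawn to scale along the coordinate minus that of the Tnf start in kb (horizontal axis), with the reads at its summit as height (vertical axis), for the wild-type (blue) and knockout (red) lists. Only regions that overlap the windows of Ltb, Tnf and Lta are drawn. Lst1 had 2 promoter regions in each list, and those outside these windows, including both wild-type ones, are left out. The wild-type summits drawn hold 27 to 37 reads and the knockout summits at Ltb, Tnf and Lta 86 to 90. The box drawn next to Lst1 is a knockout region that overlaps no wild-type region.

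Il2 (chromosome 3, 37120713 to 37125954, minus strand) had no region within 5 kb of the gene in either list. The nearest region lay 26.3 kb from the start in the knockout (chr3:37152241-37153181), with 28 reads at its summit, and 34.5 kb from it in the wild type (chr3:37160493-37161858), with 66 reads. Both lie upstream of the gene. Il22 (chromosome 10, 118204584 to 118210047, plus strand) also had no region within 5 kb in either list. Its nearest region was 9.5 kb away in the wild type (chr10:118194622-118195420) and 32.1 kb away in the knockout (chr10:118172350-118172893), each with 16 reads. No region within 5 kb in either list was the state of 25% of all protein-coding genes. Iltifb, a near copy of Il22 on the same chromosome, was also without a region. The labels do not say how reads that match both copies were treated, so the values of these copies are uncertain.

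Among ligands related to Tnf, the direction was mostly the same. Of 10 other TNF superfamily ligands, the knockout was longer at 8 and shorter at 1, with a median difference of 728 bp, and 8 had a promoter region in the knockout against 6 in the wild type. Tnfsf8, the ligand of CD30, had 4443 bp against 1662 bp, and Tnfsf14, which shares a receptor with the lymphotoxins, had 2285 against 320 bp. Fasl, a death ligand of killer cells, and Tnfsf11, the ligand RANKL, had 2112 and 1789 bp against 0 bp. These genes lay in the library in which T cell markers were longer. For Cd40lg, Tnfsf4, Tnfsf9 and Cd70 the start is the gene boundary with more coverage, since the promoter table gives no strand. Cd40lg counts as longer, with 805 bp against 0 bp, but had no promoter region in either list, and its boundary may not be its start.

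Other secreted molecules divided by type. Of 8 chemokine and granule genes of CD8 cells, 5 were longer in the knockout and 3 shorter, with a median of 1306 bp. Over all protein-coding genes 30.7% were longer and 34.4% shorter. The pore protein gene Prf1 had 2408 bp, the chemokine gene Xcl1 2301 bp and the protease gene Gzmb 2173 bp in the knockout, each against 0 bp, and Ccl5 had 2797 against 1337 bp. Ccl3 and Ccl4, both among the shorter genes, have overlapping stretches and the same lengths, 1995 bp in the knockout against 2179 bp. The same regions thus count for both. Of 18 other cytokine genes, 3 were longer, 7 shorter and 8 equal, with a median of 0 bp and no promoter region in the knockout list only. The 8 equal genes had no coverage in either list, as at Il2 and Il22, and comprised Il3, Il4, Il9, Il12b, Il13, Il17a, Il17f and Il21, named here as a full account although the rule for named genes does not cover them. Il18 had 2623 bp in the knockout against 4047 bp, Il10 1100 against 1851 bp, Il5 439 against 1099 bp and Il6 1690 against 1930 bp.

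The receptors of the 6 cytokines were marked in both lists with few exceptions. Of 12 receptor genes 11 had a promoter region in the knockout list and 10 in the wild-type list, 7 were longer in the knockout and 5 shorter, and the median was 382 bp. Over all protein-coding genes 61.1% had a promoter region in the knockout list and 59.5% in the wild-type list, and 30.7% were longer and 34.4% shorter. The gains were largest among the chains of the interleukin-2 receptor. Il2ra had 2771 bp against 0 bp, Il2rb 1860 against 643 bp and Il2rg 3459 against 2406 bp. Il10rb, which pairs with the interleukin-22 receptor chain, had 3433 against 2531 bp.

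Downstream genes were marked throughout. All 19 signalling and feedback genes had a promoter region in both lists, 13 were longer in the knockout and 4 shorter, with a median of 313 bp. Over all protein-coding genes 57.9% had a promoter region in both lists, 30.7% were longer in the knockout and 34.4% shorter. Tradd, an adaptor of the TNF receptor, had 3743 against 2802 bp, Cish, a feedback inhibitor of interleukin-2 signalling, 4167 against 3384 bp, and Nfkbia, the inhibitor of NF-kappaB, 4332 against 3555 bp. Of 30 factors and receptors that act upstream of the cytokine genes, 16 were longer and 11 shorter, with a median of 7.5 bp. Eomes and Tbx21, T-box factors that activate Ifng, had 4383 against 1231 bp and 3076 against 974 bp. Il18r1, a chain of the interleukin-18 receptor, had 2862 against 485 bp, and Irf4 4091 against 1904 bp. Of 15 housekeeping genes 6 were longer and 6 shorter, with a median of 0 bp, and 14 were marked in each list. Sdha had 3587 against 2649 bp, Hprt 2849 against 2491 bp and Eef1a1 3727 against 4018 bp.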

How the data were processed

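H3K4me3 peak lists of 1 wild-type and 1 Atg5 knockout library were used. The other samples, H3K27me3 and input, were not used here. MACS2 and the GRCm38 (mm10) build are named in the submitters' processing notes. The labels do not state the MACS2 settings, aligner, read filters or any use of input. The deposited fold is a ratio of summit reads to local background within 1 library. Each −log10 p and −log10 q deposited by the authors refers to that summit, and the deposited score, 10 times the −log10 q, was not used. These are the authors' values and were used only within 1 list. No total read number is given for either library. Summit reads were recovered from fold = (reads + 1)/(background + 1) and the Poisson p to a tolerance of 0.001 in −log10 p. This added step, chosen after seeing the data, succeeded at 48011 of 48014 and 45834 of 45836 regions (wild type and knockout) below a −log10 p of 250. The genome-wide background was 2.85 and 2.62 reads. Their Poisson intervals cover counting error only.

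Gene starts came from the RefSeq promoter table for 17491 of 21883 genes, as the start furthest 5′. For the rest, the end of the gene with the greater coverage in 2.5 kb on each side, both lists added, was used. The tables hold no exons. The list genes named are the 4 with the largest difference in each of the 7 gene lists, besides the 6 genes, annotated genes in their windows and the 5 genes most like Ifng; 2 genes so chosen are not reported here. Outside this rule, Ccl3, Ccl4, Cd40lg, Tnfsf4, Tnfsf9 and Cd70 were named for a shared stretch or a start chosen by coverage. Cell type markers were named after their values were seen, chiefly those at 0 bp. Genes, lists, elements and motifs were chosen with earlier results of these data known. Regions were shared at an overlap of at least 1 bp. Alternatives were stricter q thresholds, equal list lengths and other windows and overlaps. The steps were tested on simulated data. Tools were bedtools 2.31.1, Matplotlib 3.10.9, SciPy 1.17.1, pandas 2.3.3, NumPy 2.4.6 and Python 3.11.15.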

Additional observations from a re-analysis of the deposited data

How the results depend on the processing

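Counts and lengths were compared with their main values and taken as moved when they differed by more than 1.5 times. None of 19 moved at a −log10 q of at least 5. At a −log10 q of at least 10 the Ifng window kept 1 knockout region with 2254 bp, the same number as in the wild type, where 1 region with 1089 bp was kept. With 20000 regions kept per list, the Ifng window held 0 regions and 0 bp in both lists, the joint window of Tnf, Lta and Ltb held 0 wild-type regions and 0 bp, 0 of the 6 genes had a wild-type promoter region, and 1190 genes had one in the knockout only, against 709. The knockout regions of that joint window, 5 with 12872 bp, were all among the 20000. Within 10 kb, Ifng had 0 wild-type regions (0 bp) and 3 knockout regions (3024 bp), and Il22 had 1 wild-type region (799 bp). Within 50 kb, the joint window held 12 wild-type regions (24925 bp) and 15 knockout regions (39657 bp), Il22 had 3 (1662 bp) and 1 (544 bp), and Il2 had 2 (2111 bp) and 3 (3312 bp). Under a reciprocal overlap of 50%, 3 of the 5 shared knockout regions remained shared. Those at the site 29 kb downstream of Ifng and at Ltb did not, with 48.3% and 49% of the knockout region overlapped. Within 1 kb of the start, 4779 genes were shorter in the knockout, against 7529. Wider or stricter windows change these values by their construction. No paired analysis was possible because each genotype has 1 library. The Ifng regions hold 13 to 29 reads in the knockout list, near the lowest called summit of 10, and reads outside called regions were not analysed here.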

Other observations

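The recovered summit reads allow the shared regions to be set beside other shared regions of the 2 lists, as values without a test. Regions at a −log10 p of 250 or more, where no reads were recovered, are left out. The comparison covers 31251 regions that overlapped exactly 1 region of the other list and had reads recovered in both. Over these 31251 regions the median ratio of knockout to wild-type summit reads was 0.865, and the central 95% ran from 0.406 to 2.80. At least 2 times as many reads in the knockout were found at 6.13% of these regions, and at least 3 times as many at 2.03%. At least 2 times as many in the wild type were found at 10.5%. The ratio was 3.19 at Ltb, where 27 and 86 reads were found, 2.64 at Tnf and 2.43 at Lta. At the distal sites it was lower, 1.21 at the site 29 kb downstream of Ifng and 1.30 at the site upstream of Lta. The 2 summits of a pair need not share a position. They lay 1113 bp apart at the Ifng site, 434 bp at Ltb, 392 bp upstream of Lta, 49 bp at Tnf and 0 bp at Lta. The reads were not scaled between the libraries, whose genome-wide backgrounds were 2.85 and 2.62 reads. T cell markers were longer in the knockout list, and their part in these ratios was not tested.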
